A study of Homo sapiens with 8 samples.

Results

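Genes for the proteins of the cytosolic ribosome were followed in 8 xenografts of the ovarian cancer cell line SK-OV-3, which is of human origin, in nude mice. In 4 xenografts the cells carried pIND_BORA, a vector that overexpresses BORA, and in 4 the matching empty vector pIND_EV (EV). All 8 tumours shared the cell line and the nude host, and the labels name no inducing agent, dose, animal age or time of harvest. Nor do they give the number of host animals or of transfected pools behind each group, so a p-value here covers the spread of these 8 samples alone, part of which may be technical. BORA is a cofactor through which the kinase Aurora A activates PLK1 at mitotic entry. Total RNA of each tumour was read on 1 Affymetrix array, and 17709 transcript clusters, groups of probes that report 1 gene, carried a single gene symbol. Values were taken as log2 signals.

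The members were the genes whose annotated symbol is RPL, RPS or RPLP followed by a number and at most 1 letter out of A, X and L. This gave 49 genes, 29 of the large and 20 of the small ribosomal subunit. Each had 1 cluster that carried a single symbol, so the choice of the brightest cluster never applied. Any cluster annotated with several symbols was left out. A RefSeq gene table (GRCh38.p14) lists 80 protein-coding genes of this pattern. For 31 of them, 20 of the large and 11 of the small subunit, no cluster with a single symbol was found, and these were not analysed here. Among them were RPLP0, RPLP2, RPL3, RPL5, RPL10, RPL39 and RPS27A. The letter L at the end of a symbol admits 4 paralogues, RPL3L, RPL10L, RPL39L and RPS27L. The cluster named RPL21 carries the code of chromosome 10 in its identifier, while RefSeq places RPL21 on chromosome 13. Only 7 of 17702 clusters disagree in this way, so the RPL21 cluster may report a copy of the gene elsewhere, and its values are given under that limit.

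A ribosome is built from ribosomal RNA and from one copy of nearly every protein described here, with the small subunit reading the messenger RNA and the large subunit joining the amino acids. Cells make these proteins in balanced amounts, and proliferating tumour cells make many ribosomes. Most messenger RNAs of this family begin with a 5′ terminal oligopyrimidine (TOP) tract, a C followed by further pyrimidines, through which mTORC1 and the RNA-binding protein LARP1 control their translation and stability. Ribosomal protein genes also have many processed pseudogenes, which can share probe sequence with the expressed gene.

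The tract is shown first for members that the results below return to, because it is what the family shares beyond its protein function. Windows of 10 bases before to 20 bases from the start site were read from RefSeq (GRCh38.p14), 5′ to 3′ on the gene's strand. Capitals mark a run of at least 5 pyrimidines that begins with C at the first transcribed base.
RPL31 (chr2:101002279-101002308, plus strand): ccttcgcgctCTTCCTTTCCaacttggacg
RPL24 (chr3:101686699-101686728, minus strand): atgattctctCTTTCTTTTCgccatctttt
RPS12 (chr6:132814559-132814588, plus strand): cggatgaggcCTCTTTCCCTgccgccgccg
RPS16 (chr19:39435930-39435959, minus strand): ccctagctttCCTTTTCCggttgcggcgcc
RPS6 (chr9:19380217-19380246, minus strand): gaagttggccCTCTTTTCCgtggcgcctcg
RPS27 (chr1:153990752-153990781, plus strand): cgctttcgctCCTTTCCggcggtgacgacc
The next windows hold no such run at the listed start, which says only that these letters are not at that position.
RPS15 (chr19:1438386-1438415, plus strand): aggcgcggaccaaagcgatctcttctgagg
RPS28 (chr19:8321486-8321515, plus strand): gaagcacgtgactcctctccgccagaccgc
RPL27 (chr17:42998409-42998438, plus strand): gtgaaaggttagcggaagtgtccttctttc
RPS27L (chr15:63157458-63157487, minus strand): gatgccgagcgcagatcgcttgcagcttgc
RPL10L (chr14:46651762-46651791, minus strand): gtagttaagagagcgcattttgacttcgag
The table matched 43 of the 49 members with 48 start windows. A TOP-like start was found in 30 windows (62.5%) of the members, in 4.88% of 82 windows of mitochondrial ribosomal protein genes and in 4.54% of 22199 windows of protein-coding genes. RPS27 had the run and its paralogue RPS27L did not.

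The BORA transcript checked the labels. It was at 12.57, 12.55, 12.91 and 13.00 in BORA replicates 1 to 4 and at 6.16, 6.15, 6.89 and 7.32 in EV replicates 1 to 4, a log2 difference of 6.13 (SE 0.27, limma adjusted p = 2.38e-05). All 4 EV values lay below the 95th percentile of their array's negative control probes, so the size of this difference depends on the background level. 1 array stood apart. EV replicate 1 correlated with the others at 0.943 to 0.954 over all clusters, where the other 7 correlated with each other at 0.981 to 0.992. The mean log2 level of 9 squamous epithelial markers was 13.69 there, with 8 of 9 above the 95th percentile of the array's negative control probes, against 5.53 to 6.32 and 1 or 2 of 9 in the other arrays. Markers of ovarian carcinoma and epithelium (5 of 6 measured) were all above that percentile in every array and averaged 14.27 to 14.49 in BORA tumours and 13.76 (EV replicate 1) to 15.06 (EV replicate 3) in EV tumours. Each comparison is therefore given over 8 arrays and over the 7 arrays without EV replicate 1. The upper quartile of all clusters was 9.45 to 9.55 in BORA arrays and 9.37 to 9.43 in EV arrays, without overlap, which bears on any set of bright genes.

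The first question was whether the ribosomal protein genes differed between BORA and EV tumours. None of the 49 passed limma's test at an adjusted p under 0.05 over all clusters, with 0 higher and 0 lower over 8 arrays, where 0.102% of all clusters passed as higher and 0% as lower. Over 7 arrays the members again gave 0 and 0, where 0.435% of all clusters passed as higher and 0.0791% as lower. Before adjustment, at p under 0.05, 8 members stood higher and 0 lower over 8 arrays, where 7.37% and 7.17% of all clusters did. Of the 7217 clusters whose mean lay above the 95th percentile of the negative controls, 11.5% and 2.77% did so. Over 7 arrays the members gave 2 and 0, all clusters 7.70% and 7.62%, and the brighter clusters 11.8% and 3.53%. The smallest adjusted p of a member was 0.249 over 8 arrays and 0.197 over 7, both for the cluster named RPL21. The ordinary test without moderation also called 0 members.

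Most members nevertheless lay slightly on the BORA side over 8 arrays. The log2 difference was above 0 in 42 of 49, with a median of 0.19. The values ran from -0.17 (RPS4X) to 0.84 (RPS15), leaving aside RPL10L and RPL3L, which lay below the negative control percentile in every array. Over all clusters 46.6% were above 0, with a median of -0.026. Bright genes as a whole leaned the same way, since 64.6% of the clusters above the negative control percentile were above 0, with a median of 0.11. Without EV replicate 1, 35 of 49 members were above 0 with a median of 0.072, beside 62.0% and a median of 0.086 of the clusters above that percentile. The members' median was then no higher than that of all clusters above that percentile, 47 of the members among them. A set without members held the 529 other clusters of at least the members' lower quartile of signal. Its median was 0.074 over 8 arrays and 0.071 over 7. After quantile normalization, which gives each array the same distribution of values, 36 of 49 members were above 0 over 8 arrays (median 0.11) and 22 of 49 over 7 arrays (median -0.024). Of the clusters above the negative control percentile, 50.4% were then above 0 over 8 arrays and 47.7% over 7. In bulk tumour RNA fewer tumour cells and less RNA per cell cannot be told apart.

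**Figure D1:**
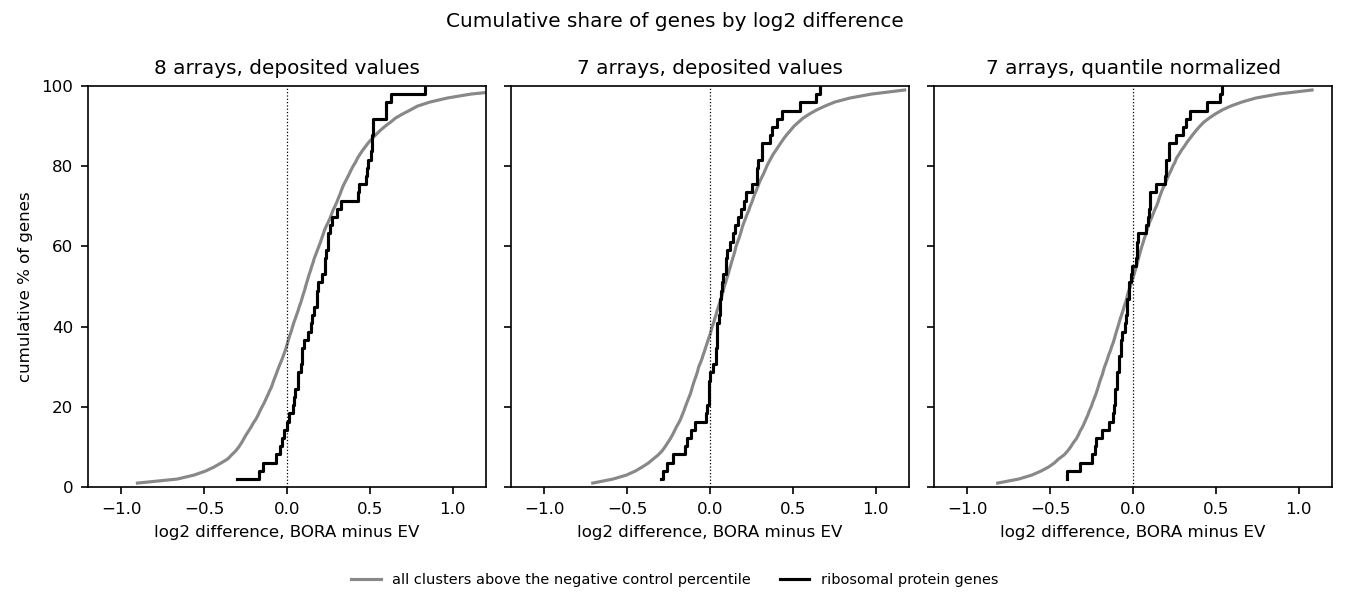
Cumulative percentage of genes (vertical axis) against the log2 difference BORA minus EV (horizontal axis) for the 49 ribosomal protein genes (black steps) and all clusters above the negative control percentile (grey line), over 8 arrays, over 7 arrays without EV replicate 1, and over 7 arrays after quantile normalization. The members' median is 0.19, 0.072 and -0.024 in the 3 panels, and the black steps lie to the right of the grey line at the median in the first panel.

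The tumours of a group differed among themselves. Relative to each gene's own mean over the 8 arrays, the median member was at 0.0015, 0.14, 0.16 and 0.086 in BORA replicates 1 to 4 and at -0.39, -0.040, 0.17 and -0.087 in EV replicates 1 to 4. EV replicate 3 thus lay above every BORA tumour, and EV replicate 1 far below the rest, so the groups overlapped. EV replicate 1 held the lowest value of 31 of the 49 members (63.3%), against 34.3% of the clusters above the negative control percentile. Set against the mean of EV replicates 2 to 4, it was lower at 43 members, with a median difference of -0.49 over the 49, where those clusters had a median of -0.10. For the 74 mitochondrial ribosomal protein genes that median was -0.48, so the low level in this tumour was not limited to the cytosolic ribosome. The squamous and carcinoma markers given above moved with this array, and their part in the low ribosomal protein values was not tested. Among the other arrays, BORA replicate 2 and EV replicate 3 held the highest value of 13 and 12 members.

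**Figure D2:**
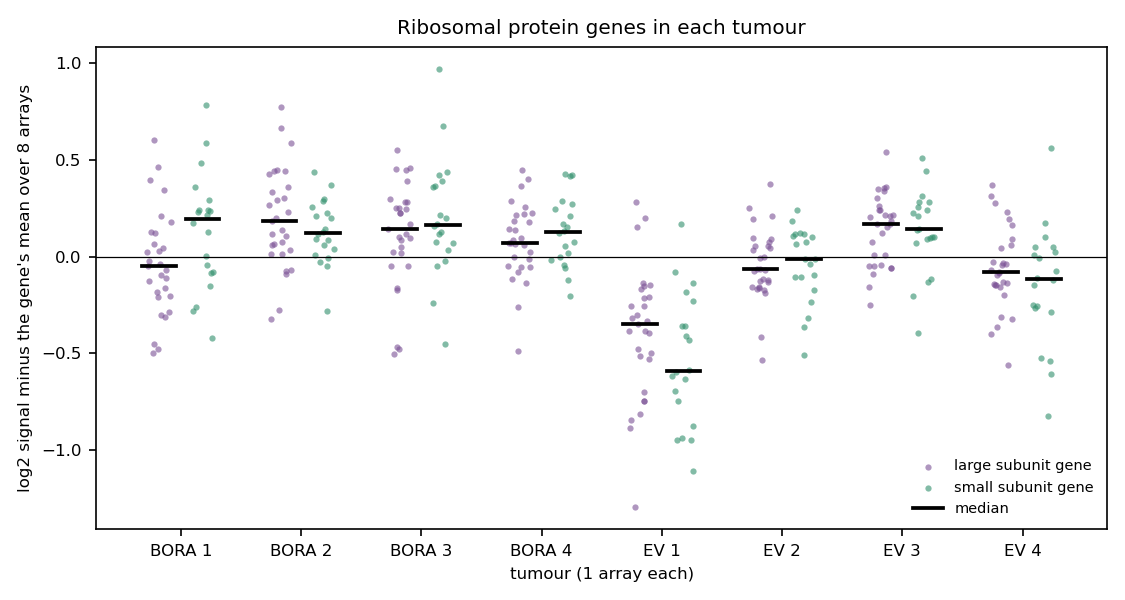
Each point is 1 ribosomal protein gene in 1 tumour, plotted as its log2 signal minus that gene's mean over the 8 arrays (vertical axis), for large subunit genes (purple) and small subunit genes (green), with black bars at the medians. EV 1 lies lowest, with medians of -0.35 and -0.59, while EV 3 lies at 0.17 and 0.14, within the range of the BORA tumours.

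Large and small subunit genes were then compared. Over 8 arrays the median log2 difference was 0.15 for the 29 large subunit genes and 0.29 for the 20 small subunit genes, and 24 and 18 of them were above 0. Over 7 arrays the medians were 0.057 and 0.12, with 19 and 16 above 0. The gap of -0.14 between the medians (large minus small) became -0.064 without EV replicate 1. Within each tumour, the median large subunit deviation minus the median small subunit deviation was -0.24, 0.060, -0.022 and -0.059 in BORA replicates 1 to 4 and 0.25, -0.054, 0.027 and 0.038 in EV replicates 1 to 4. The groups overlapped. The extremes were BORA replicate 1, with large subunit genes low relative to small subunit genes, and EV replicate 1, with the reverse. Against the mean of EV replicates 2 to 4, EV replicate 1 was at a median of -0.65 over small subunit genes and -0.42 over large subunit genes.

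**Figure D3:**
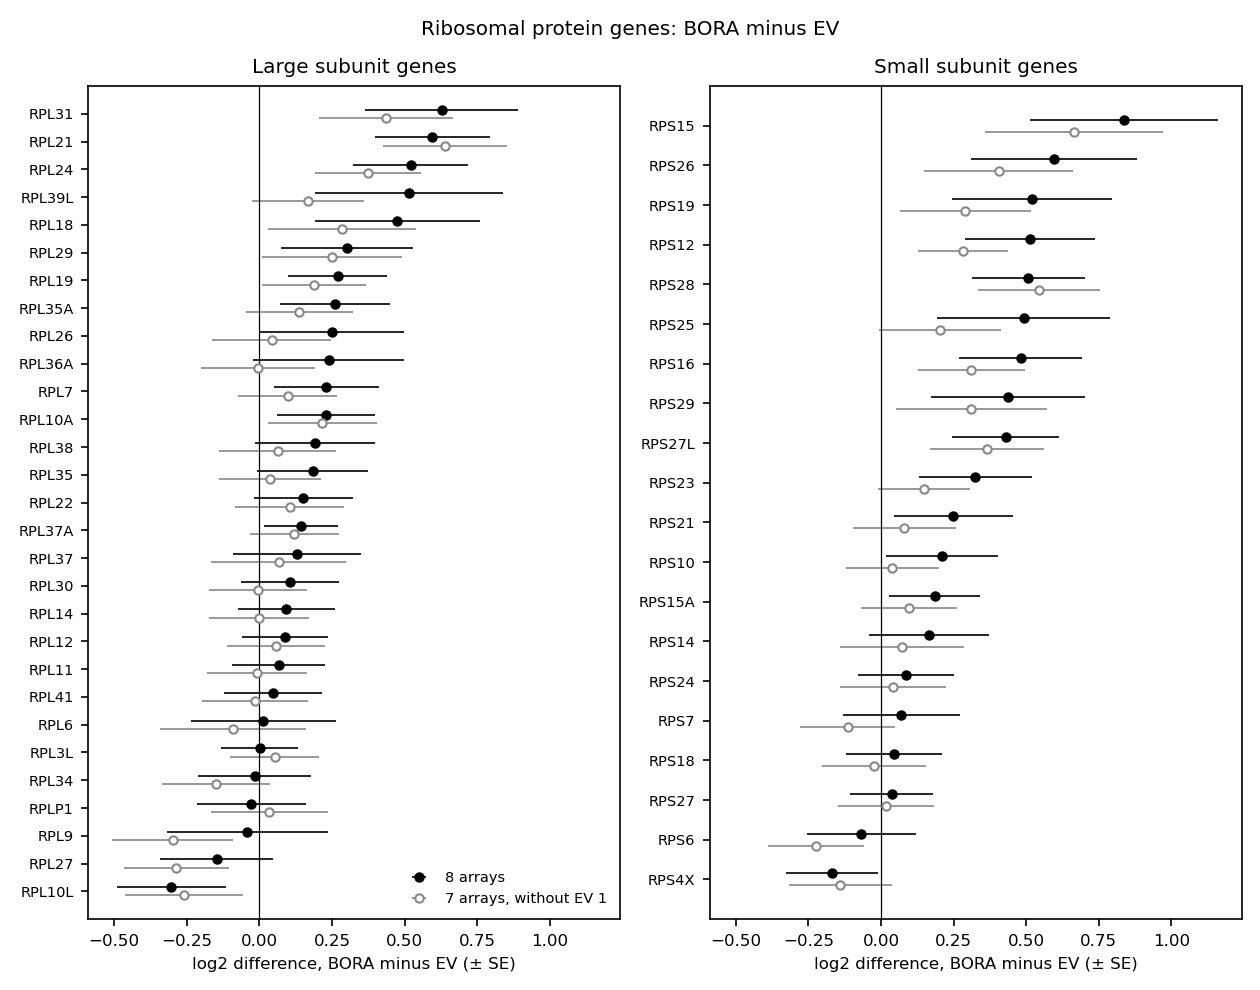
Log2 difference BORA minus EV (horizontal axis, ± SE) of each large subunit gene (left) and small subunit gene (right), over 8 arrays (filled) and over 7 arrays without EV 1 (open). RPS15 has the highest value at 0.84, RPS4X the lowest filled symbol among genes above background at -0.17, RPL10L and RPL3L lie below background in every array, and most open symbols lie nearer to 0 than the filled ones.

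Among large subunit genes, the highest log2 differences were those of RPL31, the cluster named RPL21, RPL24 and RPL39L over 8 arrays. RPL31, at the rim of the peptide exit tunnel, was at 14.18, 15.15, 14.94 and 14.94 in BORA tumours and at 13.60, 14.56, 14.24 and 14.29 in EV tumours (difference 0.63, SE 0.26, limma adjusted p = 0.324). BORA replicate 1 lay below 3 EV tumours. RPL24, which takes part in a bridge between the subunits, was at 14.39, 14.13, 14.27 and 14.22 in BORA tumours and at 13.29, 13.83, 14.21 and 13.59 in EV tumours (difference 0.52, SE 0.20, limma adjusted p = 0.293). EV replicate 3 reached the BORA range, and without EV replicate 1 the difference was 0.37 (limma adjusted p = 0.360).

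The RPL21 cluster was 1 of 2 members whose groups did not overlap over 8 arrays. It was at 12.30, 12.95, 12.40 and 12.24 in BORA tumours and at 12.01, 11.76, 12.13 and 11.61 in EV tumours. The log2 difference was 0.60 (SE 0.20, limma adjusted p = 0.249) over 8 arrays and 0.64 (SE 0.21, limma adjusted p = 0.197) over 7, so it did not rest on EV replicate 1. The other such member was RPS12, and both were higher in BORA tumours (2 of 49, with 0 of 49 lower, where 4.45% of all clusters did not overlap as higher and 4.91% as lower). Of the clusters above the negative control percentile, 6.93% were higher and 1.69% lower without overlap.

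RPL18, a large subunit protein, was at 15.37, 15.27, 14.74 and 15.19 in BORA tumours and at 14.10, 14.37, 15.45 and 14.76 in EV tumours, where EV replicate 3 was the highest of all 8. Its difference went from 0.48 (limma adjusted p = 0.467) to 0.28 (limma adjusted p = 0.639) without EV replicate 1. At the lower end, RPL27 was at 11.05, 11.20, 10.62 and 11.18 in BORA tumours and at 10.74, 11.28, 11.30 and 11.32 in EV tumours. Its EV replicates 2 to 4 lay together above every BORA tumour, and EV replicate 1 lay among the BORA values. Over 7 arrays RPL27 was the single member lower without overlap (1 of 49, where 7.68% of all clusters were; 2 of 49 were higher, where 6.66% were). Of the clusters above the negative control percentile, 10% were higher and 3.34% lower without overlap over 7 arrays. RPL27 was at a difference of -0.29 (SE 0.18, limma adjusted p = 0.491).

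RPL9 was at 13.59, 13.96, 13.19 and 13.95 in BORA tumours and at 12.95, 14.07, 13.95 and 13.89 in EV tumours. Its groups overlapped, and the difference was -0.042 over 8 arrays and -0.30 over 7 (limma adjusted p = 0.957 and 0.534). RPL34 had differences of -0.016 and -0.15 (limma adjusted p = 0.978 and 0.745). The remaining large subunit genes outside the paralogues and the named groups below lay between -0.091 (RPL6 over 7 arrays) and 0.30 (RPL29 over 8 arrays).

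Among small subunit genes, RPS15 had the largest difference of all members. RPS15, a protein of the head of the small subunit, was at 15.59, 14.93, 15.78 and 14.61 in BORA tumours and at 13.87, 14.30, 15.12 and 14.27 in EV tumours. EV replicate 3 exceeded BORA replicates 2 and 4, and the SD was 0.55 among the BORA and 0.52 among the EV tumours. The difference was 0.84 (SE 0.32, limma adjusted p = 0.297) over 8 arrays and 0.66 (SE 0.31, limma adjusted p = 0.332) over 7.

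RPS12, part of the beak of the small subunit, was at 13.41, 13.37, 13.34 and 13.59 in BORA tumours and at 12.22, 13.16, 13.05 and 13.22 in EV tumours. Every BORA tumour lay above every EV tumour with and without EV replicate 1, but the difference shrank from 0.51 (SE 0.22, limma adjusted p = 0.336) to 0.28 (SE 0.15, limma adjusted p = 0.416). RPS28, which lies near the messenger RNA exit channel, was at 14.67, 14.14, 14.61 and 14.34 in BORA tumours and at 14.05, 13.82, 14.28 and 13.58 in EV tumours. Here EV replicate 1 was not the lowest, and the difference was 0.51 over 8 arrays and 0.55 over 7 (SE 0.19 and 0.21, limma adjusted p = 0.294 and 0.251).

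RPS26, also at the exit channel, was at 15.82, 14.95, 15.90 and 15.44 in BORA tumours and at 14.36, 15.22, 15.44 and 14.71 in EV tumours, with BORA replicate 2 below 2 EV tumours. Its difference was 0.60 over 8 arrays and 0.41 over 7 (limma adjusted p = 0.373 and 0.491). RPS16 was at a difference of 0.48 and 0.31, and RPS25 at 0.49 and 0.20, where EV replicate 1 was at 13.74 and the other EV tumours at 14.62 to 15.41. RPS16 and RPS25 were named after their values were seen.

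A few small subunit genes lay near or below 0. RPS4X, encoded on the X chromosome, was at 15.63, 16.18, 16.12 and 15.93 in BORA tumours and at 16.22, 16.01, 16.15 and 16.15 in EV tumours. BORA replicate 1 was the lowest array and EV replicate 1 the highest. The difference was -0.17 (SE 0.16, limma adjusted p = 0.639) and -0.057 without BORA replicate 1. RPS7 had differences of 0.070 and -0.11, and RPS18 of 0.044 and -0.024, over 8 and 7 arrays (limma adjusted p = 0.787 to 0.963 for both). The groups overlapped at each of these genes.

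**Figure D4:**
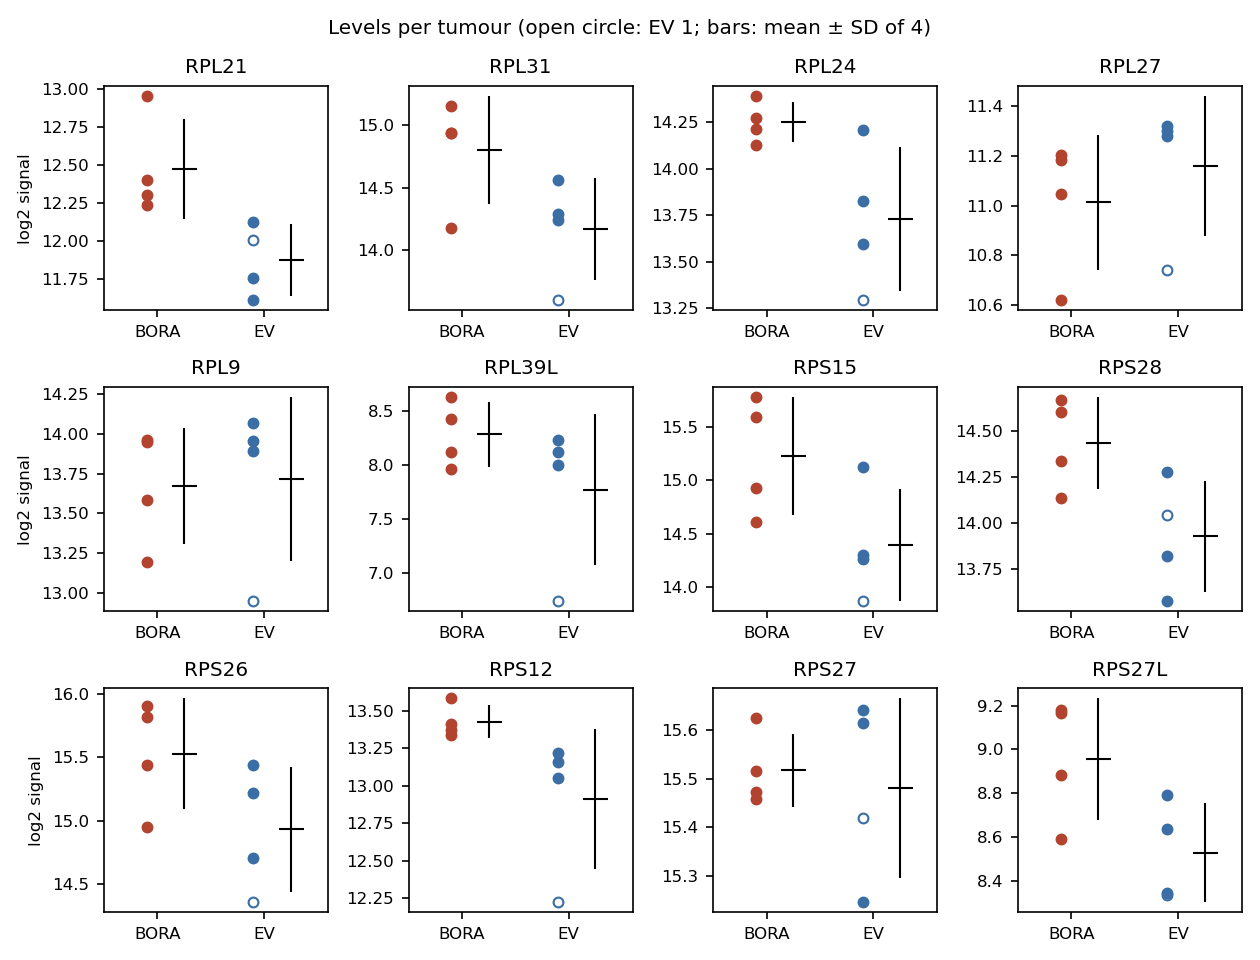
Log2 signal (vertical axis, own scale per gene, not starting at 0) of 12 ribosomal protein genes in the 4 BORA (red) and 4 EV (blue) tumours, with EV 1 as an open circle and bars for the mean ± SD of 4. RPL21 and RPS12 show no overlap between groups, and EV 1 lies well below the other EV tumours at RPL39L (6.74), RPL9 (12.95) and RPS12 (12.22).

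Genes with known roles outside the translating ribosome were described by name. RPL11 joins RPL5 and the 5S ribosomal RNA in a particle that can bind and inhibit MDM2. It was at 14.66, 14.74, 14.83 and 14.81 in BORA tumours and at 14.47, 14.66, 15.07 and 14.58 in EV tumours, a difference of 0.066 (SE 0.16, limma adjusted p = 0.870) with a 95% interval of -0.29 to 0.43. RPS6, the substrate of the S6 kinases downstream of mTORC1, was at 13.42, 13.76, 13.65 and 13.83 in BORA tumours and at 13.27, 13.81, 13.98 and 13.87 in EV tumours. Its difference was -0.068 over 8 arrays and -0.22 over 7 (limma adjusted p = 0.886 and 0.561), and the groups overlapped.

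RPS19, the gene most often mutated in Diamond-Blackfan anaemia, was between 13.76 and 14.19 in BORA tumours and at 12.82, 13.45, 14.28 and 13.48 in EV tumours. EV replicate 3 was the highest array and EV replicate 1 the lowest, so the EV tumours spanned a wider range (SD 0.60) than the BORA tumours (SD 0.20). The difference was 0.52 and 0.29 over 8 and 7 arrays (limma adjusted p = 0.418 and 0.576). RPLP1, an acidic protein of the stalk that recruits elongation factors, was at 14.45, 14.83, 14.02 and 14.64 in BORA tumours and at 14.70, 14.38, 14.51 and 14.47 in EV tumours, a difference of -0.027 (limma adjusted p = 0.958). The EV values of RPLP1 lay inside the BORA range.

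Paralogues were examined on their own, since they are made in particular tissues or conditions and can share probe sequence with the parent gene. RPS27L, a paralogue of RPS27 known as a p53 target, was at 8.59, 8.88, 9.18 and 9.17 in BORA tumours and at 8.33, 8.64, 8.35 and 8.79 in EV tumours, a difference of 0.43 (SE 0.19, limma adjusted p = 0.333). BORA replicate 1 lay below EV replicates 2 and 4. RPS27L exceeded the negative control percentile in all 8 arrays, but narrowly in EV replicate 1, at 8.33 against 8.24. RPS27 was at 15.46, 15.47, 15.63 and 15.52 in BORA tumours and at 15.42, 15.62, 15.64 and 15.25 in EV tumours, a difference of 0.037 (SE 0.14, limma adjusted p = 0.921). Over 7 arrays the differences were 0.36 and 0.017 (limma adjusted p = 0.413 and 0.974). A test of RPS27L against RPS27 was not made.

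RPL39L, a paralogue of RPL39 known from testis and several cancers, was at 8.63, 7.96, 8.13 and 8.43 in BORA tumours and at 6.74, 8.13, 8.23 and 8.001 in EV tumours. EV replicate 1 alone was low there, below that array's negative control percentile, and without it the difference went from 0.51 (SE 0.32) to 0.17 (SE 0.19; limma adjusted p = 0.490 and 0.724). In EV replicates 2 to 4 RPL39L was also near background, at 8.001 to 8.23 where the percentile was 7.82 to 8.01. RPL10L, a testis-expressed copy of RPL10, and RPL3L, the paralogue of striated muscle, lay below the negative control percentile in all 8 arrays, so their differences of -0.30 and 0.00040 over 8 arrays carry no information on a level. RPL36A, on the X chromosome, has the autosomal copy RPL36AL. RPL36A was at 12.51, 11.84, 12.25 and 12.53 in BORA tumours and at 11.32, 12.20, 12.40 and 12.26 in EV tumours, a difference of 0.24 that was -0.0032 without EV replicate 1 (limma adjusted p = 0.690 and 0.996).

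The width of the intervals shows what these arrays could resolve. The 95% interval of the log2 difference (limma) lay wholly between -1 and 1, a change of less than 2-fold either way, for 39 of 49 members over 8 arrays and for 46 over 7 arrays. Over 7 arrays the exceptions were RPL21, RPS15 and RPS28, whose upper bounds were 1.11, 1.34 and 1.01. The median half-width was 0.44 over 8 arrays and 0.41 over 7. The SD within groups had a median of 0.28 over the members and of 0.30 over 529 other clusters of at least the members' lower quartile of signal, and it ranged from 0.085 (RPL37A) to 0.54 (RPS15 and RPL39L).

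Other genes of the ribosome and of translation were read from fixed lists. Of 9 further ribosome components and paralogues, 6 were measured and 0 passed in limma in either comparison, while 2 were higher and 0 lower before adjustment (p under 0.05) in each, where 7.37% of all clusters were higher over 8 arrays and 7.70% over 7. FAU, which encodes the small subunit protein RPS30 fused to a ubiquitin-like domain, was at 11.73, 11.40, 11.64 and 11.14 in BORA tumours and at 9.19, 10.78, 10.94 and 10.24 in EV tumours. The groups did not overlap, and the difference was 1.19 over 8 arrays and 0.82 over 7 (SE 0.35 and 0.22, limma adjusted p = 0.216 and 0.120). RPL26L1, a paralogue of RPL26, was at a difference of 0.67 and 0.52 (limma adjusted p = 0.250 and 0.267), and RPL36AL at 0.47 and 0.35 (limma adjusted p = 0.355 and 0.466). RPL26L1 exceeded the negative control percentile in 7 arrays, all but EV replicate 1. FAU, RPL26L1 and RPL36AL were named for the smallest p of the list. Over the 6 genes the median was 0.41 over 8 arrays and 0.31 over 7. RSL24D1 was below 0 in both, at -0.072 and -0.29.

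Elongation factors and other genes with TOP messenger RNAs (12 of 17 measured) had a median difference of 0.20 over 8 arrays and 0.13 over 7, with 0 past the limma threshold and, before adjustment, 1 higher over 8 arrays (8.33%, beside 7.37% of all clusters) and 0 over 7, with 0 lower in both. EIF3F and EIF3L, subunits of initiation factor eIF3, and BTF3, of the nascent polypeptide-associated complex, had the smallest p, with differences of 0.44, 0.30 and 0.32 over 8 arrays (limma adjusted p = 0.312, 0.438 and 0.362). Translation initiation factors (26 of 30 measured) had medians of 0.10 and 0.038, again with 0 past the limma threshold. Before adjustment 4 were higher over 8 arrays (15.4%, beside 7.37% of all clusters and 11.5% of those above the negative control percentile) and 3 over 7 (11.5%, beside 7.70% and 11.8%), with 0 lower in both. The largest of their named members were EIF3G at 0.69 and EIF4G1, the scaffold of the cap-binding complex, at 0.68 (limma adjusted p = 0.263 and 0.222 over 8 arrays), followed by EIF2B2, a subunit of the exchange factor eIF2B, at 0.57 (limma adjusted p = 0.290).

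Genes of the machinery that builds ribosomes lay on both sides of 0, from -0.35 to 0.78 in the RNA polymerase I list and from -0.44 to 0.51 among assembly factors over 8 arrays. RNA polymerase I and small nucleolar particle genes (21 of 24 measured) had medians of 0.12 and 0.037, and 33 assembly factors, 30 measured, had medians of 0.050 over 8 arrays and -0.071 over 7, with 0 past the threshold in limma in both lists. Before adjustment, at p under 0.05, these lists gave 2 and 0 higher and 0 and 0 lower over 8 arrays, and 1 and 0 higher and 2 and 2 lower over 7, where 7.37% and 7.17% of all clusters were higher and lower over 8 arrays and 7.70% and 7.62% over 7. POLR1C, a subunit shared by RNA polymerases I and III, and GAR1, of the box H/ACA particles, were at -0.46 and -0.50 over 7 arrays (limma adjusted p = 0.239 and 0.223). POLR1F and NOP10 were at 0.53 and 0.54 over 7 arrays (limma adjusted p = 0.282 and 0.362), but POLR1F exceeded the negative control percentile in 1 array only. The assembly factors URB2, SDAD1 and BYSL were at -0.60, -0.61 and -0.41 over 7 arrays (limma adjusted p = 0.158, 0.190 and 0.335), and PES1 and RIOK2 at 0.51 and 0.37 over 8 arrays (limma adjusted p = 0.352 and 0.369). RIOK2 lay below the negative control percentile in every array, and BYSL exceeded it in 4 arrays and URB2 in 6.

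Of the 19 regulators of ribosomal protein synthesis around mTORC1, LARP1 and MYC, 0 passed limma's test over 8 arrays and 1, MNT, rose over 7. Before adjustment, at p under 0.05, 4 were higher and 0 lower over 8 arrays (7.37% and 7.17% of all clusters), and 3 were higher and 3 lower over 7 (7.70% and 7.62%). The lower ones over 7 arrays were DEPTOR and, named after their values were seen, MYC at -0.73 (limma adjusted p = 0.266) and the S6 kinase gene RPS6KB1 at -0.35 (limma adjusted p = 0.325). Over 8 arrays MYC was at -0.54 and RPS6KB1 at -0.18 (limma adjusted p = 0.459 and 0.677). MNT, a partner of MAX that opposes MYC, was at 8.03, 7.98, 8.02 and 7.996 in BORA tumours and at 7.41, 7.29, 7.20 and 7.08 in EV tumours, a difference of 0.82 (SE 0.15, limma adjusted p = 0.0496). Over 8 arrays it was 0.76 (limma adjusted p = 0.0928). MNT exceeded the negative control percentile in 3 arrays only, so its level is near background, and it lost the call whichever further array was left out. RPTOR and TSC2, of mTORC1 and of its inhibitory complex, were at 0.61 and 0.43 over 8 arrays (limma adjusted p = 0.235 and 0.264), and DEPTOR, an mTOR inhibitor, at -0.80 over 7 (limma adjusted p = 0.226). RPTOR exceeded the negative control percentile in 1 array and DEPTOR in 0.

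Mitochondrial ribosomal proteins, encoded in the nucleus for a separate ribosome, gave a comparison family. The list was drawn by symbol from the clusters themselves, so all 74 were measured by construction, and coverage of the family was not assessed. Of the 74, 62 were above 0 over 8 arrays and 55 over 7. The medians were 0.23 and 0.14, and 0 passed in limma in either comparison. Before adjustment, at p under 0.05, 11 stood higher and 0 lower over 8 arrays (14.9% of the list, beside 7.37% of all clusters and 11.5% of those above the negative control percentile). Over 7 arrays 8 stood higher and 0 lower (10.8%, beside 7.70% and 11.8%). MRPS5, MRPL57 and MRPL2 had the smallest p over 8 arrays, with differences of 0.72, 0.61 and 0.58 (limma adjusted p = 0.196, 0.220 and 0.252), and MRPL21 was at 0.57 over 7 (limma adjusted p = 0.203). Whether the cytosolic and mitochondrial families differed in their shift was not tested.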

How the data were processed

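The authors deposited 1 table with a log2 signal per probe set and array; log2 was inferred from the range of the values, since no label states the log base. Per the submitters' processing notes Affymetrix Expression Console was used; for its version, summary method, normalization and genome build the entry is: not given in the sources used here. Design text in the series names a Human Gene 1.0 ST array, while the identifiers and the supplied annotation are of another Affymetrix human design. Of 24351 rows, 17709 carry a single gene symbol. Each of these clusters was tested with limma 3.58.1 in R 4.3.3 (lmFit and eBayes, BORA minus EV, no covariates), with Benjamini-Hochberg adjustment over all of them and a threshold of 0.05, over 8 arrays and over 7 without EV replicate 1. The steps were tested on simulated data. Precision is limited by how few arrays there are. The negative control percentile is the 95th percentile of 612 negative control rows, per array.

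The members and lists were chosen with earlier results of these data known. Named genes were members past the threshold; the 4 highest and 4 lowest differences per subunit in each comparison; genes fixed by name (stalk, paralogues, RPL11, RPS6, RPS19); up to 3 genes of smallest p per list; and BORA. Other settings tried were a block on replicate number, quantile normalization, median centring, an intensity trend with robust fitting, array weights, no moderation, 2 filters on dim clusters, all rows, 2 thresholds, the mean of a gene's clusters and leaving out each array. The tumours grew in mice, and any host RNA was not separated from human RNA. The serial numbers in the titles run through all BORA tumours before all EV tumours, so an order of processing and the group cannot be told apart. At most 0.0113% of values were identical between any 2 arrays.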

Additional observations from a re-analysis of the deposited data

Results flagged for a closer look

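Within groups of 4 tumours, a sample was singled out when its gap to the nearest other sample exceeded Dixon's 95% critical share of the group's range; chance gives about 1 in 20. Of 158 groups examined 8 held such a sample, a share near that of chance. At 4 ribosomal protein genes the sample was EV replicate 1, below the other EV tumours: RPL27 at 10.74 (nearest 11.28), RPL39L at 6.74 (nearest 8.001), RPL9 at 12.95 (nearest 13.89) and RPS12 at 12.22 (nearest 13.05). EV replicate 1 was also low at POLR1C, 9.06 against 9.70. BORA replicate 1 was low at MRPS5, 9.37 against 9.50, and high at RPTOR, 7.89 against 7.18. BORA replicate 4 was low at DEPTOR, 5.52 against 6.59, where all arrays lay below the negative control percentile.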

How the results depend on the processing

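The count of 0 members higher and 0 lower held over 8 and 7 arrays under each alternative run. The members' median kept its sign under each alternative over 8 arrays (0.072 to 0.25 when leaving out 1 array) and over 7 (0.045 to 0.14), except that quantile normalization gave -0.024 over 7. Centring on the array median gave 0.14 over 8 arrays (37 of 49 above 0) and 0.022 over 7 (29 of 49). Large minus small subunit medians ranged from -0.22 to -0.064 over 8 arrays and from -0.11 to -0.013 over 7 when leaving out 1 array. Same-numbered tumours of the groups showed correlations of -0.11, 0.039, 0.071 and -0.019 in their deviations. So few tumours, with EV replicate 1 standing apart, cannot settle whether the numbers pair the samples. With the replicate block the members' median was 0.19 over 8 arrays and 0.12 over 7, with 0 calls. Over 8 arrays such a block cannot change a log2 difference. Over 7 arrays it leaves BORA replicate 1 without a partner, so the median equals that without BORA replicate 1. Centring on the array median moved the median of all clusters over 8 arrays from -0.026 to -0.080.

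Named members near 0 changed sign without being called. Over 8 arrays quantile normalization gave RPL3L -0.066, RPS18 -0.051, RPS27 -0.039 and RPS7 -0.0061, centring gave RPL3L -0.053, RPS18 -0.0096 and RPS27 -0.016, and array weights gave RPLP1 0.055, RPS18 -0.037, RPS27 -0.016 and RPS7 -0.085. Over 7 arrays quantile normalization gave RPL3L -0.0062, RPLP1 -0.073 and RPS27 -0.084, centring gave RPLP1 -0.016 and RPS27 -0.033, array weights gave RPL11 0.013 and RPS27 -0.027, and the replicate block gave RPL11 0.027. Leaving out 1 array over 8 arrays gave ranges of -0.0077 to 0.19 for RPL11, -0.15 to 0.098 for RPL34, -0.0032 to 0.38 for RPL36A, -0.047 to 0.052 for RPL3L, -0.30 to 0.12 for RPL9, -0.14 to 0.13 for RPLP1, -0.044 to 0.13 for RPS18, -0.041 to 0.092 for RPS27, -0.22 to 0.016 for RPS6 and -0.11 to 0.18 for RPS7. Over 7 arrays they were -0.10 to 0.14 for RPL11, -0.086 to 0.14 for RPL36A, -0.082 to 0.19 for RPLP1, -0.12 to 0.063 for RPS18 and -0.11 to 0.088 for RPS27. The causes were not tested.

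Of the mTORC1, LARP1 and MYC regulators, the 1 risen over 7 arrays (MNT) became 0 with the replicate block, quantile normalization, centring, the intensity trend, no moderation, all rows, a threshold of 0.01, and without the clusters below the negative control percentile, MNT among them; leaving out 1 array gave 0 to 0. Over 8 arrays the count of 0 became 1 with array weights and at a threshold of 0.1, and ranged from 0 to 1 when leaving out 1 array.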

Other observations

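Members were also divided by their listed start. The 30 members with such a start had a median log2 difference of 0.20 over 8 arrays and 0.068 over 7, with 27 and 23 above 0. They include the cluster named RPL21, placed by the RefSeq start of that gene although the cluster may report another copy. It was their highest over 7 arrays, at 0.64. The 13 members in the table without one had medians of 0.23 and 0.19, with 9 and 7 above 0 and included both RPS15 at 0.84 and RPS4X at -0.17, the highest and the lowest of the members above background over 8 arrays. RPL10L, below the negative control percentile in every array, was also among these 13. The difference between the sets with and without such a start was not tested. In the promoters, the letters CCGGAAG, the core of an ETS factor site, were present on either strand in 35.4% of the members' windows of 300 bases, 39.0% of those of mitochondrial ribosomal protein genes and 12.8% of those of protein-coding genes. A match to these letters is a description of the window and not evidence of binding.

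In the marker lists, 5 endothelial genes averaged 5.67 to 6.10 in BORA tumours and 5.05 to 5.74 in EV tumours, with 1 or 2 of 5 above the negative control percentile in BORA arrays and 0 in EV arrays. Leukocyte genes (6 of 6 measured) averaged 7.40 to 7.81 in BORA tumours and 7.14 to 8.22 in EV tumours, and fibroblast genes (6 of 7 measured) 8.52 to 8.94 and 7.89 to 8.84. EV replicate 3, the EV tumour with the highest ribosomal protein median, also had the highest mean of carcinoma and epithelial markers. BORA replicate 3 had the highest ribosomal protein median of the BORA tumours (0.16) but their lowest mean of these markers (14.27). A relation between the 2 measures was not tested.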
